A study of Homo sapiens and Mus musculus with 61 samples.

Results

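PGK1 is described here across the libraries of a CAPTURE-ChIP-seq study, as the 300 bp regions on the X chromosome whose centre lay within 1 kb of the gene's start. Of the 143198 regions in the 17 tables of the study, 12 met this rule, 1 in each of 12 tables. Those tables hold 32 guide libraries. The other 5 tables, of sgHBB, sgHBG, sgHS5, sgHS2-sg2 and sgHS3-sg2, list no region there, so their 10 guide libraries give no value for PGK1. The gene was chosen by its log2 ratio of guide over sgGal4 levels, which was at least 1 in 8 tables. Those ratios are therefore given as a description, with no test.

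CAPTURE-ChIP-seq steers a biotin-tagged, catalytically inactive Cas9 (dCas9) to a chosen DNA site with a single guide RNA, pulls it down on streptavidin beads and sequences the DNA that comes along. All libraries used here are from K562, a human leukaemia cell line of erythroid character, and all carry the tagged dCas9. The groups with a PGK1 value are 6 first guides (sg3'HS1, sgHBD-1kb, sgHS1, sgHS2, sgHS3 and sgHS4), 5 second guides (sgHBB-sg2, sgHBG-sg2, sgHS1-sg2, sgHS4-sg2 and sgHS5-sg2), the libraries labelled sgHS1-5, and sgGal4, a guide without a human target. The named targets are the hypersensitive sites of the beta-globin locus and its genes, on chromosome 11, so no guide is labelled as directed at PGK1. There were 2 libraries for most guides, 3 for sgHS3, 5 for sgHS2, 6 for sgHS1-5 and 4 for sgGal4; the same 4 sgGal4 libraries stand in every table. The labels do not say that the replicates came from separate cultures, nor do they describe the vectors that carried dCas9 and the guides.

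PGK1 encodes phosphoglycerate kinase 1, the glycolytic enzyme that passes a phosphate from bisphosphoglycerate to ADP and so makes ATP. The gene lies on the X chromosome and is used in nearly all cells from a GC-rich promoter without a TATA box. Because it is compact and widely active, this promoter is often copied into expression vectors, as are those of EEF1A1, an elongation factor of translation, and of the U6 small nuclear RNA gene RNU6-1, which commonly drives guide RNAs. A read from such a copy and a read from the chromosomal promoter cannot be told apart where the sequences are alike.

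A pair of promoter sequences carries the comparison that follows. They are the region of PGK1 and that of RNU6-1 in the table of sgHS2, where the signal was highest, from the GRCh37 genome, which has the coordinates of hg19. PGK1 is on the plus strand at chrX:77359378-77359677, and capitals mark the searched letters GGGCGG (the GC box), CCAAT and ACGTG (a core of the hypoxia response element) on either strand. RNU6-1 is on the minus strand at chr15:68132345-68132644, and capitals mark ATTTGCAT (the octamer) and TATATA.
PGK1: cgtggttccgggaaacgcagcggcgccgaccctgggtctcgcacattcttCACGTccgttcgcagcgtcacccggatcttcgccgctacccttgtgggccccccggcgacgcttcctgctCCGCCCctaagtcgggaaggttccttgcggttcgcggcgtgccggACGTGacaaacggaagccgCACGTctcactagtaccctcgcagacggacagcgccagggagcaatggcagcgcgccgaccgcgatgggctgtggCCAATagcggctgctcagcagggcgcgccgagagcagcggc
RNU6-1: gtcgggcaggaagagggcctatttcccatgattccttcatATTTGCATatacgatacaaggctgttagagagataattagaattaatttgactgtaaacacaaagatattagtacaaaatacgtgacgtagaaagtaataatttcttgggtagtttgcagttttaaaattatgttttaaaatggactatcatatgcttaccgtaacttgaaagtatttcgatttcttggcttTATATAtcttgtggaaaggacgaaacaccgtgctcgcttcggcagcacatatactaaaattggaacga
The PGK1 region was 68.7% G and C, above 92.0% of the regions of that table, whose median was 49.3%. It held 1 GGGCGG, 1 CCAAT and 3 ACGTG. Of the 5217 regions of that table, 21.3% held GGGCGG, 31.6% CCAAT and 18.4% ACGTG; of 35116 RefSeq promoters of equal length (GRCh38.p14), 45.0%, 34.6% and 21.4% did. None of the PGK1 motifs overlap each other. The RNU6-1 region was 35% G and C and held 1 ATTTGCAT, present in 1.94% of the regions and 1.77% of the promoters, and 1 TATATA, present in 6.75% and 3.99%. These are matches of letters, not sites shown to be bound.

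The PGK1 regions of the 12 tables covered the same promoter. Together they spanned 463 bp, from 77359346 to 77359808, with centres 86.5 to 249.5 bp upstream of the start of the main PGK1 transcript at 77359745. The RefSeq PGK1 promoter, 250 bases before to 50 after the start, matched this chromosome exactly once. All 12 regions also lay within longer annotated PGK1 transcripts, which start further upstream and have an intron there. The regions of sg3'HS1, sgHS4, sgHS4-sg2, sgHS5-sg2 and sgHS1-5 reached into the first exon of the main transcript. The authors' tag put every PGK1 region outside their on-target and off-target classes.

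Levels are given below as reads per 100000 reads listed in the same library and table, from read numbers recovered from the deposited log2 levels. In the 12 tables the guide libraries held 7127 to 348211 listed reads, sgGal4 replicates 1 and 2 held 41128 to 163456, and sgGal4 replicates 3 and 4 held 6499 to 18413. The listed reads are not the depth of a library, which is unknown. Intervals are exact 95% Clopper-Pearson intervals; they cover counting error only, and reads without molecular identifiers are not independent molecules.

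Among the first guides, PGK1 was highest in sgHS2 replicate 2, where it took 423 of 7127 listed reads, or 5935 per 100000 (interval 5398 to 6509). This was the highest read number of all 5217 regions in that library. The other sgHS2 libraries held 1, 3, 0 and 6 reads in replicates 1, 3, 4 and 5, or 2.74, 26.5, 0 and 13.6 per 100000. The interval of the 0 reaches up to 15.0 per 100000. In the same table sgGal4 replicates 1 to 4 held 0, 0, 7 and 1 reads, or 0, 0, 87.4 and 13.1 per 100000. Thus 1 of the 5 sgHS2 libraries lay above every sgGal4 library and the other 4 lay within the sgGal4 range.

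sgHS3 showed the same pattern at a lower level. PGK1 had 6, 278 and 6 reads in sgHS3 replicates 1 to 3, or 6.76, 693 and 12.3 per 100000, against 0, 0, 68.7 and 10.0 per 100000 in sgGal4 replicates 1 to 4. In sgHS1, replicate 2 held 23 reads, or 192 per 100000, and replicate 1 held 3 reads, or 12.02 per 100000, against 0, 0, 103 and 15.4 per 100000 in sgGal4. A single library was again above the sgGal4 range in both tables. In that of sgHS1, the intervals of replicate 2 (122 to 289) and of sgGal4 replicate 3 (41.4 to 212) overlap.

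In the other first guides no library exceeded sgGal4 replicate 3 in PGK1 reads per 100000. sg3'HS1 held 42 reads and 1 read, or 28.4 and 3.40 per 100000; by deposited log2 level its replicate 1, at 5.43, was just above sgGal4 replicate 3, at 5.39. sgHBD-1kb held 13 and 2 reads, or 13.8 and 2.88 per 100000. sgHS4 held 15 and 4 reads, or 6.72 and 6.32 per 100000, the closest pair of all. sgGal4 replicate 3 was at 57.8, 59.4 and 63.5 per 100000 in the tables of sg3'HS1, sgHBD-1kb and sgHS4. The sgHS1-5 libraries held 9, 14, 2, 1, 50 and 0 reads in replicates 1 to 6, or 4.57, 4.02, 9.56, 4.89, 23.8 and 0 per 100000, against 0, 0, 38.1 and 5.43 per 100000 in sgGal4. By deposited log2 level sgHS1-5 replicate 5, at 6.59, was above sgGal4 replicate 3, at 6.21.

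In all 5 second guides, replicate 1 held more PGK1 reads than replicate 2. sgHBB-sg2 had 73 and 2 reads, or 153 and 9.72 per 100000. sgHBG-sg2 had 84 and 5 reads, or 161 and 11.0 per 100000. sgHS1-sg2 had 94 and 11 reads, or 80.7 and 15.9 per 100000. These replicate 1 libraries lay above sgGal4 replicate 3, at 103, 78.6 and 62.1 per 100000 in the same tables, and the replicate 2 libraries below it. sgHS4-sg2 had 47 and 3 reads, or 89.7 and 8.73 per 100000, with sgGal4 replicate 3 at 79.4. sgHS5-sg2 had 75 and 2 reads, or 125.2 and 5.00 per 100000, with sgGal4 replicate 3 at 75.5. In each of the 5 second guides the interval of replicate 1 overlaps that of sgGal4 replicate 3. For sgHS4-sg2 these are 65.9 to 119 and 31.9 to 164, and for sgHBG-sg2 128 to 199 and 31.6 to 162.

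The sgGal4 libraries differ among themselves at PGK1 in the same way in every table. sgGal4 replicates 1 and 2 held 0 reads throughout, replicate 3 held 7 or 8 and replicate 4 held 1. In the table of sgHS2, the intervals of 0 reads reach up to 8.09 per 100000 in sgGal4 replicate 1 and 4.56 in replicate 2. Both are below the 87.4 of replicate 3 (interval 35.2 to 180). Each log2 ratio therefore sets guide libraries against a control mean that rests mainly on 1 shallow library with few reads.

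**Figure D1:**
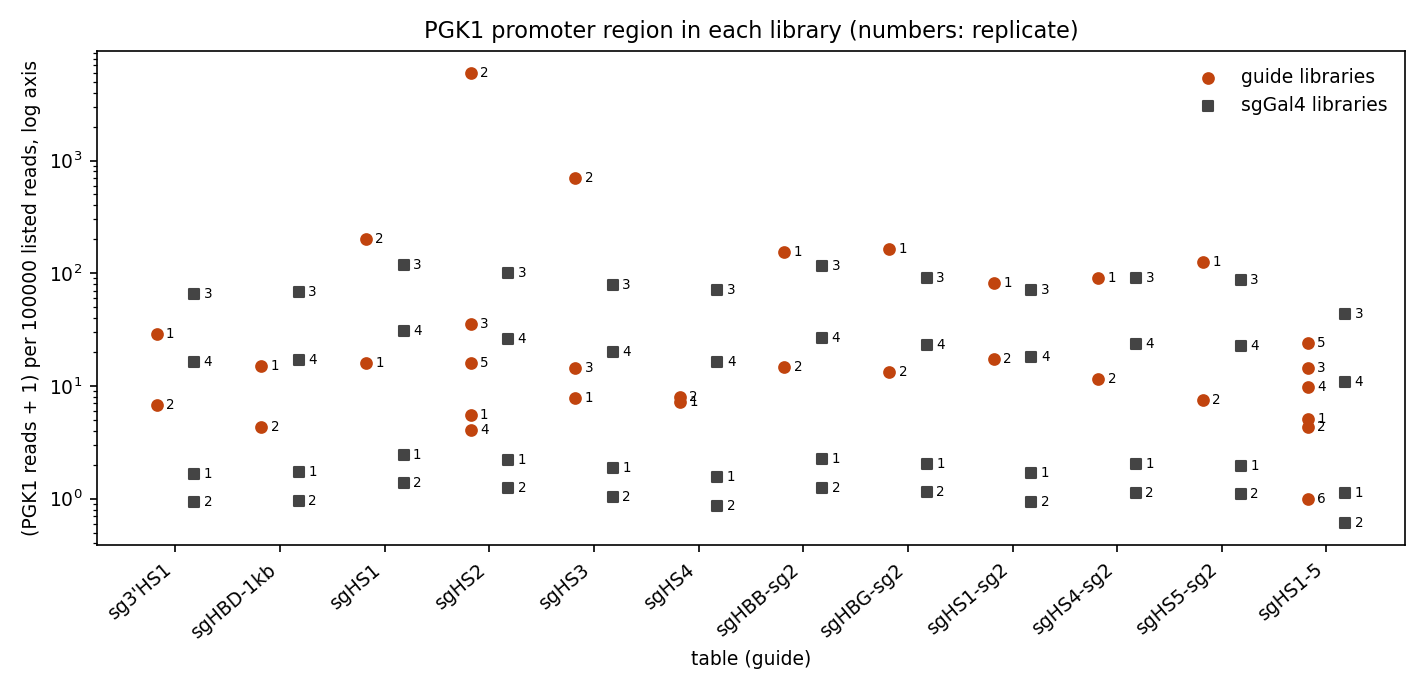
PGK1 level in each library of the 12 tables, as (reads + 1) per 100000 listed reads on a log axis; circles are guide libraries and squares, to their right, the 4 sgGal4 libraries, with the replicate number beside each point. sgHS2 replicate 2 and sgHS3 replicate 2 stand highest, and sgGal4 replicates 1 and 2, at 0 reads, lie lowest in 11 tables; in that of sgHS1-5, its replicate 6, also at 0 reads, lies between them.

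The log2 ratio of PGK1 is the log2 of the mean linear guide level divided by the mean linear sgGal4 level. It was 4.03 for sgHS2, 3.68 for sgHS3, 2.10 for sgHBG-sg2, 1.90 for sgHS1-sg2, 1.69 for sgHS5-sg2, 1.46 for sgHBB-sg2, 1.15 for sgHS4-sg2 and 1.14 for sgHS1. The lowest 2 of these, sgHS4-sg2 and sgHS1, are just inside the limit of 1 that chose the gene, and sg3'HS1 at 0.90 is just outside. The ratio was 0.37 for sgHS1-5, -0.03 for sgHBD-1kb and -0.18 for sgHS4. PGK1 thus reached the limit in 8 of 12 tables, beside 17.2% of all regions of these tables; by table this background was 5.41% for sgHS2, 24.4% for sgHS3, 11.3% for sgHBG-sg2, 16.8% for sgHS1-sg2, 11.2% for sgHS5-sg2, 3.88% for sgHBB-sg2, 6.33% for sgHS4-sg2 and 1.97% for sgHS1. In the tables where PGK1 was under 1, it was 30.6% for sg3'HS1, 30.1% for sgHBD-1kb, 12.6% for sgHS4 and 21.1% for sgHS1-5. From recovered reads with 1 added, the ratio of sgHS4-sg2 was 0.82, and 7 tables reached 1. In sgHS2, PGK1 ranked 2 of 5217 regions by ratio, in sgHBG-sg2 34 of 6591 and in sgHBB-sg2 37 of 5226. In sgHS3 it ranked 56 of 7777, in sgHS1 66 of 4217, in sgHS5-sg2 109 of 6918, in sgHS1-sg2 124 of 9237 and in sgHS4-sg2 238 of 6242. By deposited level, 10 of the 32 guide libraries lay above all 4 sgGal4 libraries at PGK1, beside 28.5% of all pairs of a guide library and a region in these tables. By reads per 100000, 8 of 32 did, 1 in each of the 8 tables that reached the limit. The 28.5% is by deposited level, and no such share by reads per 100000 was computed.

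The libraries of a guide spread widely at PGK1. The SD of the deposited log2 levels at PGK1 was 3.75 over the 5 sgHS2 libraries, 3.15 over the 3 sgHS3 libraries and 1.48 to 2.69 over the 2 libraries of each of the other 6 guides past the limit. A single guide library held over 80% of the guide's reads per 100000 at PGK1 in all 8 of those tables: 99.3% in sgHS2, 97.3% in sgHS3, 94.1% in sgHS1 and 83.6% to 96.2% in the second guides. Including sg3'HS1 (89.3%) and sgHBD-1kb (82.8%), this held in 10 of 12 tables. In sgHS4, with 51.5%, and sgHS1-5, with 50.8%, it did not.

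How often other regions were so concentrated in 1 library differed between tables. Of all regions with guide reads, it was met by 2.44% in the table of sgHS2, 10.9% in sgHS3, 33.5% in sgHS1, and 25.3%, 20.3%, 14.4%, 18.7% and 21.1% in sgHBB-sg2, sgHBG-sg2, sgHS1-sg2, sgHS4-sg2 and sgHS5-sg2. Among regions with at least as many guide reads as PGK1, itself counted, it was met by 2 of 4 in sgHS2 (50%), 3 of 26 in sgHS3 (11.5%), 39 of 128 in sgHS1 (30.5%), 2 of 15 in sgHBB-sg2 (13.3%), 3 of 16 in sgHBG-sg2 (18.8%), 2 of 16 in sgHS1-sg2 (12.5%), 2 of 55 in sgHS4-sg2 (3.64%) and 1 of 15 in sgHS5-sg2 (6.67%). In sgHS5-sg2 that 1 region was PGK1. In the other tables, all regions with guide reads met it in 33.5% for sg3'HS1, 14.7% for sgHBD-1kb, 26.3% for sgHS4 and 1.13% for sgHS1-5. Regions with at least as many reads as PGK1 did so in 9.68%, 1.09%, 19% and 0.103% for the same guides.

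Without its highest guide library, PGK1 stayed at or above a log2 ratio of 1 in 0 of the 8 tables and fell below 0 in 7. The ratio was then -0.98 for sgHS2, -0.17 for sgHS3, -1.61 for sgHS1, -0.91 for sgHBB-sg2, -0.75 for sgHBG-sg2, 0.50 for sgHS1-sg2, -0.90 for sgHS4-sg2 and -1.21 for sgHS5-sg2. Of all regions with a ratio of at least 1, the share that went under 1 when each lost its own highest library was 49.6% in sgHS2, 34.9% in sgHS3, 81.9% in sgHS1, 59.1% in sgHBB-sg2, 53.3% in sgHBG-sg2, 57.7% in sgHS1-sg2, 59.2% in sgHS4-sg2 and 60.9% in sgHS5-sg2. The share that went below 0 was 0.709% in sgHS2, 0.896% in sgHS3, 45.8% in sgHS1, 4.93% in sgHBB-sg2, 5.21% in sgHBG-sg2, 5.36% in sgHS1-sg2, 1.77% in sgHS4-sg2 and 7.51% in sgHS5-sg2. Leaving out sgGal4 replicate 3 instead moved PGK1 the other way: the ratio became 5.54 for sgHS2, 5.24 for sgHS3 and 1.19 for sgHS4, and all 12 tables reached 1. Both the guide side and the control side of the PGK1 ratio thus turned on single libraries.

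**Figure D2:**
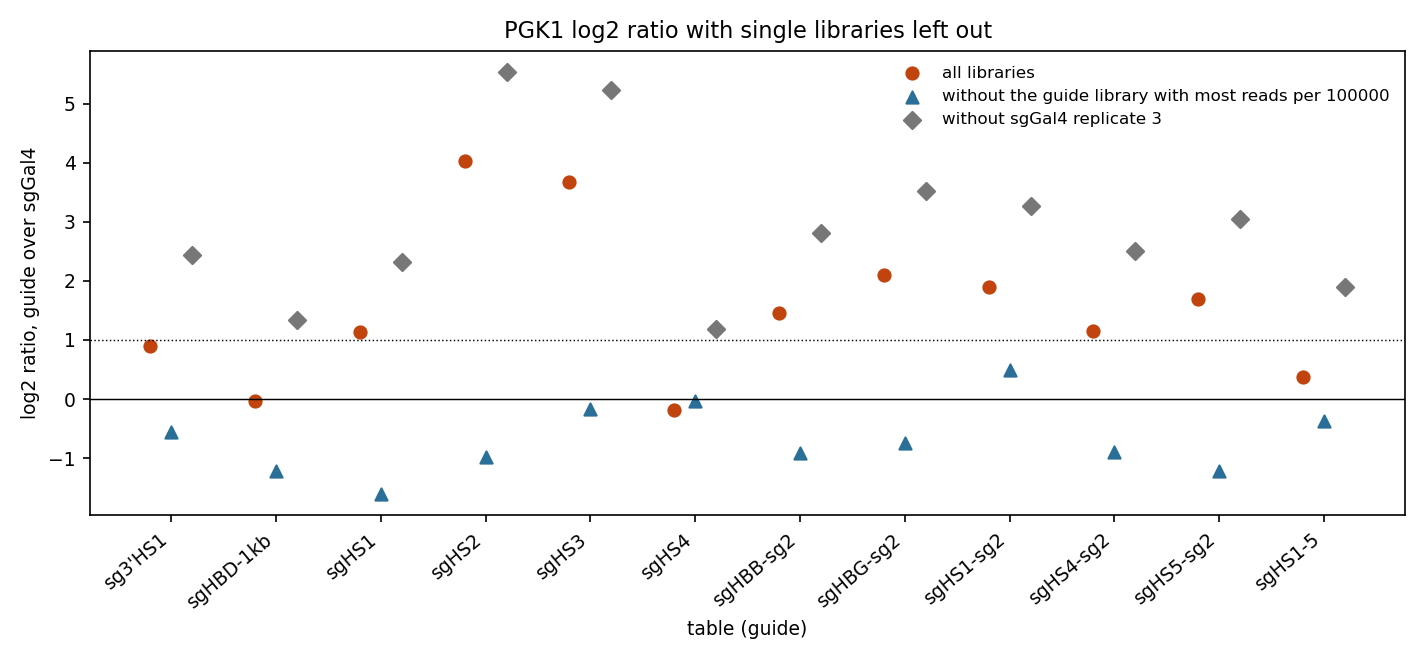
PGK1 log2 ratio of guide over sgGal4 libraries in the 12 tables, with all libraries (circles), without the guide library with most PGK1 reads per 100000 (triangles) and without sgGal4 replicate 3 (diamonds); the dotted line marks 1. The triangles of the 8 tables past the limit lie between -1.61 and 0.50, and all diamonds lie at 1.19 or above.

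The guide levels themselves are the upper term of the ratios that chose the gene, so they too are given as a description, with no test. Over the 32 guide libraries of 12 guides, 23.3% of the variance of log2 reads per 100000 at PGK1 (1 read added) lay between guides. With so few libraries per guide, labels given at random would also place a sizeable share between guides. The value is therefore not a measure of a guide effect, and no test of one is reported here. The second guides averaged 5.26 ± 0.28 (SD, n = 5 guides) and the first guides 4.37 ± 1.29 (SD, n = 6 guides) on this log2 scale, among guides whose table lists PGK1. The second guides were higher by 0.89. The difference was 0.39 per 100000 reads in regions shared by all tables, 0.50 from deposited levels less the mean sgGal4 level, and 0.49 to 1.303 without single libraries.

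RNU6-1, the source of the U6 promoter, was listed in all 17 tables and was highest in the same guide library as PGK1 in 8 of the 8 tables past the limit, 6 of which hold only 2 guide libraries. Of the 618 protein-coding genes with a region in all 12 tables, 4 (0.647%) were so in all 8 tables, EEF1A1 among them. The 618 genes had a median of 3 such tables, and 59 were so in 6 or more. ACTB was so in 6, mostly through regions far from its main promoter. RNU6-1 had 3, 304, 6, 6 and 7 reads in sgHS2 replicates 1 to 5, or 4265 per 100000 in replicate 2. In sgHS3 it had 7, 157 and 28 reads and in sgHS1 3 and 22. In sgGal4 replicates 1 to 4 of these 3 tables, RNU6-1 had 6, 5, 136 to 138 and 25 to 28 reads, so replicate 3 was highest there too. RNU6-1 parted from PGK1 in the tables of sg3'HS1, with 61 and 14 reads or 41.3 and 47.6 per 100000, and of sgHS4, with 5 and 3 reads or 2.24 and 4.74 per 100000. It also did so in sgHS1-5 replicate 4, where PGK1 was at 4.89 and RNU6-1 at 171 per 100000. Set against this sgGal4 mean, the log2 ratio of RNU6-1 was 0.27 in sgHS2 and -1.60 in sgHS4-sg2, below the limit in every table. The transcribed part of RNU6-1 has near-identical copies elsewhere in the genome, so its read numbers are uncertain even though only uniquely aligned reads were kept, per the labels' protocol.

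EEF1A1 had its highest guide library in common with PGK1 in the same 8 tables. It had 87, 308, 38, 38 and 74 reads in sgHS2 replicates 1 to 5, and 86, 1308 and 97 in sgHS3 replicates 1 to 3. It too parted from PGK1 in sg3'HS1 and sgHS4: sg3'HS1 had 85 and 461 EEF1A1 reads and sgHS4 69 and 896, while PGK1 was at 1 and 4 reads in the second library of each. Over all 12 tables, RNU6-1 and EEF1A1 each shared the highest guide library with PGK1 in 9. In sgGal4, replicate 3 was highest for PGK1, RNU6-1 and EEF1A1 in 12 of 12 tables, with 7 or 8 reads at PGK1 and 240 to 286 at EEF1A1. Whether a vector copy of a promoter gave these reads was not tested, since the labels do not name the vector sequences.

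**Figure D3:**
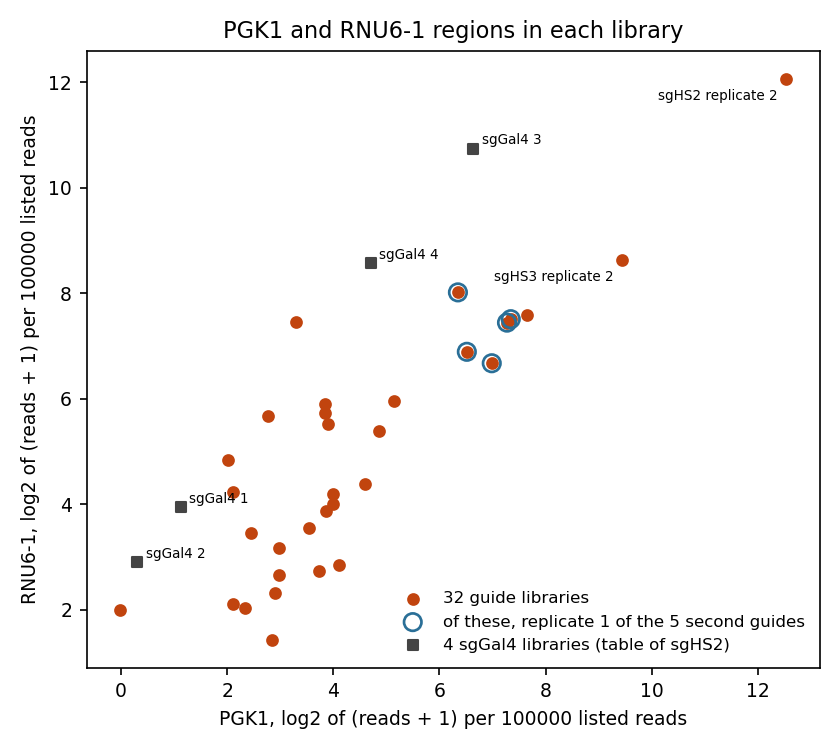
Level of RNU6-1 against that of PGK1, both as log2 of (reads + 1) per 100000 listed reads, in the 32 guide libraries (circles; rings mark replicate 1 of the 5 second guides) and the 4 sgGal4 libraries of the sgHS2 table (squares). sgHS2 replicate 2 is highest on both axes, and the ringed libraries lie together with high values of both.

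Across the 32 guide libraries, RNU6-1 followed PGK1 with Spearman's rho of 0.753 and Pearson's r of 0.857, or r of 0.762 without the 2 libraries farthest from the median. This is a description: replicates share a guide and a table, both values share the library's denominator, and no p is given. Of 618 protein-coding genes with a region in each of the 12 tables, 0 had a higher rho and their median was 0.322. Among the protein-coding genes most like PGK1 were ZNF384 (0.633), CCPG1 and PIERCE2 (0.6254 each, from 1 shared region) and SCNN1A (0.616). SCNN1A encodes a subunit of the epithelial sodium channel. EEF1A1 had a rho of 0.392, exceeded by 171 of the 618 genes. PGK1 had a rho of -0.240 with the listed reads of a library and of -0.104 with the percent of listed reads at its target.

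In the library that carried PGK1, the regions with at least 50 reads were ordered by the share of the guide's reads per 100000 that lay there. In sgHS2 replicate 2, PGK1 came first of 5 regions (99.3%), ahead of RNU6-1 (97.7%) and EEF1A1 (82.8%), followed by a region on chromosome 20 (26.9%) and the HS2 target region on chromosome 11 (17.5%). The target region was thus not concentrated in this library. In sgHS3 replicate 2, PGK1 came 4th and EEF1A1 5th of 33 regions, after regions at MSI2 (99.2%), SMYD3 (99.2%) and a region of chromosome 22 (97.7%). RNU6-1 came only 8th in that library (85.7%). In replicate 1 of each second guide RNU6-1 came first, and PGK1 came directly after it in sgHBB-sg2, sgHBG-sg2, sgHS1-sg2 and sgHS5-sg2. In sgHS4-sg2, PGK1 had 47 reads and was not ranked. In sgHS1 replicate 2, PGK1 and RNU6-1 had under 50 reads; the 5 regions most concentrated there included one at PHB2 (97.9%) and the HS1 target region itself (95.6%).

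The second guides repeat this split with the replicate number. Replicate 1 held 83.6% to 96.2% of the pair's PGK1 reads per 100000 and 93.0% to 97.8% of those at RNU6-1. Of 748 protein-coding genes with a region in all 5 tables, 28 (3.74%) also had replicate 1 higher in all 5, and 0 had over 80% in replicate 1 in all 5. This pattern was picked out after the values were seen, and it was not tested. The labels name no batch for these replicates.

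**Figure D4:**
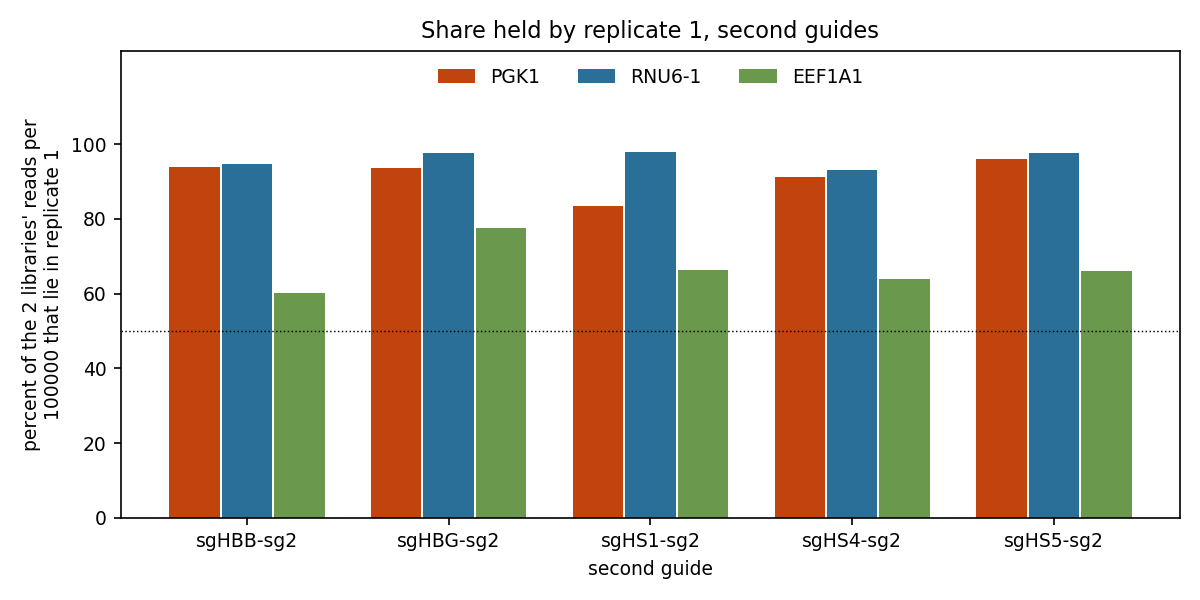
Percent of the reads per 100000 of both libraries of each second guide that lie in replicate 1, for PGK1, RNU6-1 and EEF1A1; the dotted line marks equal libraries. PGK1 lies between 83.6% and 96.2% and RNU6-1 between 93.0% and 97.8%, with EEF1A1 between 60.1% and 77.4%.

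Few regions at other genes of glycolysis passed a test of guide against sgGal4 libraries, and they did so in both directions. Of 22 listed glycolysis genes, 14 had a region within 1 kb of a start in at least 1 table, 58 regions in all, with a median log2 ratio of 0.44 against 0.08 over all 143198 regions. By limma, with an adjusted p below 0.05 within a table and a ratio of at least 1 in size, 3 of the 58 passed upward and 3 downward, beside 1.66% and 11.2% of all regions. All 3 upward regions were in sgHBD-1kb, where 9.45% of regions passed upward: ENO3, the muscle enolase (2.84, limma adjusted p = 0.0145), LDHA, lactate dehydrogenase A (1.65, limma adjusted p = 0.0457), and PKM, pyruvate kinase (1.57, limma adjusted p = 0.0430). Without either sgHBD-1kb library 0 of the 58 passed upward, and without sgGal4 replicate 1 there was 1 in each direction. PGK1 itself was at -0.03 in that table. The 3 downward regions were at PFKL, liver phosphofructokinase, in sgHS3-sg2 (-2.39), sgHBB-sg2 (-2.38) and sgHS4-sg2 (-1.97), with limma adjusted p of 0.0173, 0.00759 and 0.0322. sgHS3-sg2 has a single guide library, which the fit takes to vary like the sgGal4 libraries. PFKP, platelet phosphofructokinase, had a ratio of 2.64 in sg3'HS1 and did not pass (limma adjusted p = 0.113).

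Of 10 genes listed for promoters used in vectors, U6 genes other than RNU6-1 among them, 7 had regions, 71 in all. Their median log2 ratio was -0.28. ACTB gave 20 of the 71, most of them at an annotated start far from its main promoter. By limma 0 of the 71 passed, beside 1.66% of all regions upward and 11.2% downward. An unadjusted limma p under 0.05 was reached by 5 of the 71, beside 45078 of all 143198 regions. Without sgGal4 replicate 3, 3 passed upward, and the share of all regions in that setting was not computed. The highest ratios were 1.59 at RNU6-9 in sgHBD-1kb and 1.46 at RNU6-2 in sgHS3, and the lowest were -5.59 and -5.22 at RNU6-1 in sgHS2-sg2 and sgHS5, whose tables list no PGK1 region. Because of those ACTB regions, the median and the counts of this list only partly describe promoters that vectors carry.

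Few other regions were listed near PGK1 on the X chromosome. Within 1 Mb there were 6 in 5 tables, with log2 ratios of 0.04 to 0.92 and 8 to 21 guide reads each. In sgHBB-sg2 the ratio was 1.46 at PGK1 and 0.38 at the neighbour, and in sg3'HS1 it was 0.90 at PGK1 and 0.92 at the neighbour. The table of sgHS2, in which PGK1 had 433 guide reads, and that of sgHS3, with 290, list no other region within 1 Mb.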

How the data were processed

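Captured DNA of 46 K562 libraries in 17 tables was used; 15 of the 61 samples were not analysed here. The submitters' processing notes name Bowtie 1.0.0, Picard and the build hg19; only reads with a single alignment were kept, per the labels' protocols. The peak caller, like the normalisation, is not given in the sources used here. The authors deposited log2 levels per library and region, normalised separately for each table, and a log2 ratio, which the recomputed ratio matched within 1.39e-08. Each column's levels are a linear function of log2 of a whole number: 100% were whole within 0.01 or, where larger, 0.01% of the level. The whole number less 1 was taken as reads, which no header states.

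The files hold log2 levels and not counts, so limma 3.58.1 (R 4.3.3), planned for that case, was fitted on the log2 levels within each table, guide against sgGal4, with Benjamini-Hochberg adjustment; it was tested on simulated data. Replicates may be technical, and its p-values reflect the spread between these libraries alone. Permutation tests planned on the guide levels are not reported, since those levels entered the ratios that chose the gene; other values were computed in Python 3.11.15 with numpy 2.4.6. Tables were matched to guides by column names; the labels of sgHBG-sg2 instead name the table of sgHBG. Genes came from GENCODE lifted to GRCh37, with a region's centre within 1 kb of a start. Named were PGK1, list genes with the highest and lowest ratios, the 5 genes most like PGK1 (1 of them is not reported here), and the 5 regions with at least 50 reads most concentrated in the library that carried PGK1. The members and lists were chosen with earlier results of these data known. Alternatives were other ratios, denominators, filters, a replicate block and leaving out each library. Same-numbered guide and sgGal4 libraries deviated together little (correlations -0.06 to 0.12), so the main fit did not pair them. Such correlations cannot exclude a shared preparation.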

Additional observations from a re-analysis of the deposited data

Results flagged for a closer look

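At PGK1, sgHS2 replicate 2 lay far from the other 4 sgHS2 libraries, at 5935 reads per 100000 listed reads. Within the 4 sgGal4 libraries, replicate 3 lay far from the others in all 12 tables. Its PGK1 level was 57.8 reads per 100000 in the table of sg3'HS1, 59.4 in sgHBD-1kb, 103 in sgHS1, 87.4 in sgHS2, 68.7 in sgHS3 and 63.5 in sgHS4. It was 103 in sgHBB-sg2, 78.6 in sgHBG-sg2, 62.1 in sgHS1-sg2, 79.4 in sgHS4-sg2, 75.5 in sgHS5-sg2 and 38.1 in sgHS1-5. These are the same 7 or 8 reads of 1 library divided by the listed reads of each table, so the 12 values are 1 observation. In all, 14 groups of 4 to 6 libraries were examined, among which the 4 sgGal4 libraries recur once for each of the 12 tables. The groups are thus not independent, and their levels entered the ratios that chose the gene, so no chance rate is given.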

How the results depend on the processing

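The number of tables with PGK1 at a log2 ratio of 1 or more was 8, and other definitions moved it both ways. It was 12 of 12 from differences of mean or of median log2 levels, and with sgGal4 replicates 1 and 2 alone. It stayed 8 with the highest region within 1 kb or a centre within 0.2 kb. From recovered reads it was 7 with 1 added and 2 of 12 with 5 added. Leaving out single libraries gave 6 (without sgGal4 replicate 1) to 12 (without replicate 3). The median ratio over tables was 1.31, became 4.81 with sgGal4 replicates 1 and 2 alone, and ranged from 0.92 to 2.65 without single libraries. With those 2 sgGal4 libraries alone, 32 of 32 guide libraries were above sgGal4 at PGK1; without single libraries this count ranged from 9 to 17. The ratio turned below 0 in 7 tables without the highest guide library: -0.91 in sgHBB-sg2, -0.75 in sgHBG-sg2, -1.61 in sgHS1, -0.98 in sgHS2, -0.17 in sgHS3, -0.90 in sgHS4-sg2 and -1.21 in sgHS5-sg2. Without sgGal4 replicate 3 it was 2.81, 3.52, 2.33, 5.54, 5.24, 2.50 and 3.05 in the same tables. The cause was not tested. Counted in reads and not per 100000, an alternative chosen after seeing the data, 1 library again held over 80% in 10 tables.

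The share of variance between guides was 10.0% to 28.0% under other denominators, levels and additions and 19.3% to 35.1% without single libraries. Second less first guides ranged from 0.49 to 1.303 without single libraries, and was 0.39 per 100000 reads in regions shared by all tables. Whether replicate numbers pair the libraries is not known. With the replicate block, 11 glycolysis regions passed limma, 7 upward and 4 downward. Without it 6 passed, and 2 to 7 when single libraries were left out. For vector promoter regions the block gave 7, 4 upward and 3 downward. Without it 0 passed, and 0 to 3 when single libraries were left out. The share of all regions that passed with the block was not computed, so these counts have no background. Of the vector promoter regions, 2 passed after a filter on low reads and 2 with a trend in the variance.

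At PGK1 the 4 sgGal4 libraries together hold 8 or 9 reads, which set the denominator of every ratio; library depth is unknown.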
